A study of Mus musculus with 10 samples.

Results

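The genes described here are the cytosolic translation initiation and elongation factors of the mouse kidney. They were chosen by symbol alone, as protein-coding genes whose names begin with Eif1 to Eif6 or with Eef1 or Eef2, without the Y-linked Eif2s3y, the eIF2 kinases (Eif2ak genes) and the eIF4E-binding proteins (Eif4ebp genes). This gave 59 genes of the 43629 listed. Of these, 55 had enough reads to be tested, in 1 model with all 10055 genes that did, and the factors are read against that whole.

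Kidneys came from male UM-HET3 mice, which descend from a cross of inbred strains and differ genetically from one another. All animals were 4 months old. The 6 control mice ate the unsupplemented diet (Purina 5LG6), and the 4 treated mice ate that diet with rilmenidine, an antihypertensive imidazoline receptor agonist, at 10 ppm, beginning at 3 months of age and lasting 1 month. The comparison asks whether the drug altered mRNA levels in the kidney. The libraries count 3′ ends of polyadenylated RNA, and 1 library was made per animal. The supplementary methods of the study give 8 control kidneys, and 6 are analysed here.

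Protein synthesis starts when the small ribosomal subunit, loaded with initiator tRNA by eIF2 and held by the scaffold eIF3, is brought to the mRNA cap by the eIF4 proteins and scans to the start codon. eIF5 and eIF5B then let the large subunit join, eEF1A delivers each aminoacyl-tRNA, and eEF2 moves the ribosome along the message. Many mRNAs of this machinery begin with a run of pyrimidines, the TOP motif, through which mTOR controls their translation.

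The start of transcription is shown for 6 factors, because TOP mRNAs are read by their first transcribed bases. In addition, 4 of the 6 genes are among those that differed most between the groups below. Each line holds 30 bases of RefSeq sequence (GRCm38.p6), 6 before the annotated start and 24 from the start on, on the gene's own strand, and capitals mark the longest run of C and T. The intervals are chr9:78481701-78481730 on the minus strand for Eef1a1, chr10:81176625-81176654 on the plus strand for Eef2, chr7:108934409-108934438 on the plus strand for Eif3f, chr7:28981865-28981894 on the minus strand for Eif3k, chr9:20898567-20898596 on the minus strand for Eif3g and chr11:119300020-119300049 on the minus strand for Eif4a3.
Eef1a1: gCCCTCTTCCCgagggtgggggagaacggt
Eef2: ccgggcgttgacgtcagcggTCTCTTCCgc
Eif3f: ggCTCTCTCTCTTTCTCggcaagatggctt
Eif3k: ggcgctggtgctgaaagcgCCTTTCCCTTT
Eif3g: gggctgggagctgcgtggagttaagaCTTC
Eif4a3: ttacatccggTTCCCgccgcggcttgcagt
Among these 6 the longest run was 15 bases, in Eif3f, and the shortest 4 bases, in Eif3g. With the annotated start as base 1, the run began at -5 in Eef1a1 and -4 in Eif3f. It began at 15 in Eef2, 14 in Eif3k, 21 in Eif3g and 5 in Eif4a3. A TOP motif begins with the mRNA, so a run marked here is not by itself a TOP motif. Over the 45 factors with a promoter entry, 10 (22.2%) had a run of at least 8 pyrimidines anywhere in these 30 bases. Of the 27025 genes with an entry, 11.9% had one. In the 300 bases from 250 before to 50 after the start, searched on both strands, CCGGAAG, a form of the ETS-family site, was found in 15 factors (33.3%) against 9.93% of all genes. TATAAA was found in 4 factors (8.89%), Eef2, Eif2s1, Eif3b and Eif3f, against 15.7% of all genes. These matches are descriptions of letters and not of binding. The genes with an entry include many that were not among the 10055 tested, and shares over the tested genes alone were not computed.

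No factor differed between rilmenidine and control kidneys after adjustment, and neither did any other gene (0 of 10055, 0.0%, adjusted p-value under 0.05, quasi-likelihood test of edgeR, Benjamini-Hochberg adjustment over all genes tested). The smallest adjusted p-value was 0.343 among the factors and 0.174 among all genes. At an unadjusted p-value under 0.05, 5 of the 55 factors (9.09%) passed, all 5 higher in treated kidneys, and the background was 10.6% of all genes, with 4.43% higher and 6.13% lower. Of the passing genes 4, Eif3i, Eif3k, Eif3f and Eif3g, encode subunits of eIF3, and the other is Eif4a3, the RNA helicase of the exon junction complex. Log2 fold changes ran from -0.91 (Eif5a2) to 0.56 (Eif3i) with a median of 0.01, beside a median of 0.00 over all genes, and 30 factors lay above 0 and 25 below. In none of the 59 factors did all treated kidneys lie above or below all controls, which occurred in 168 of all genes tested (1.67%).

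**Figure D1:**
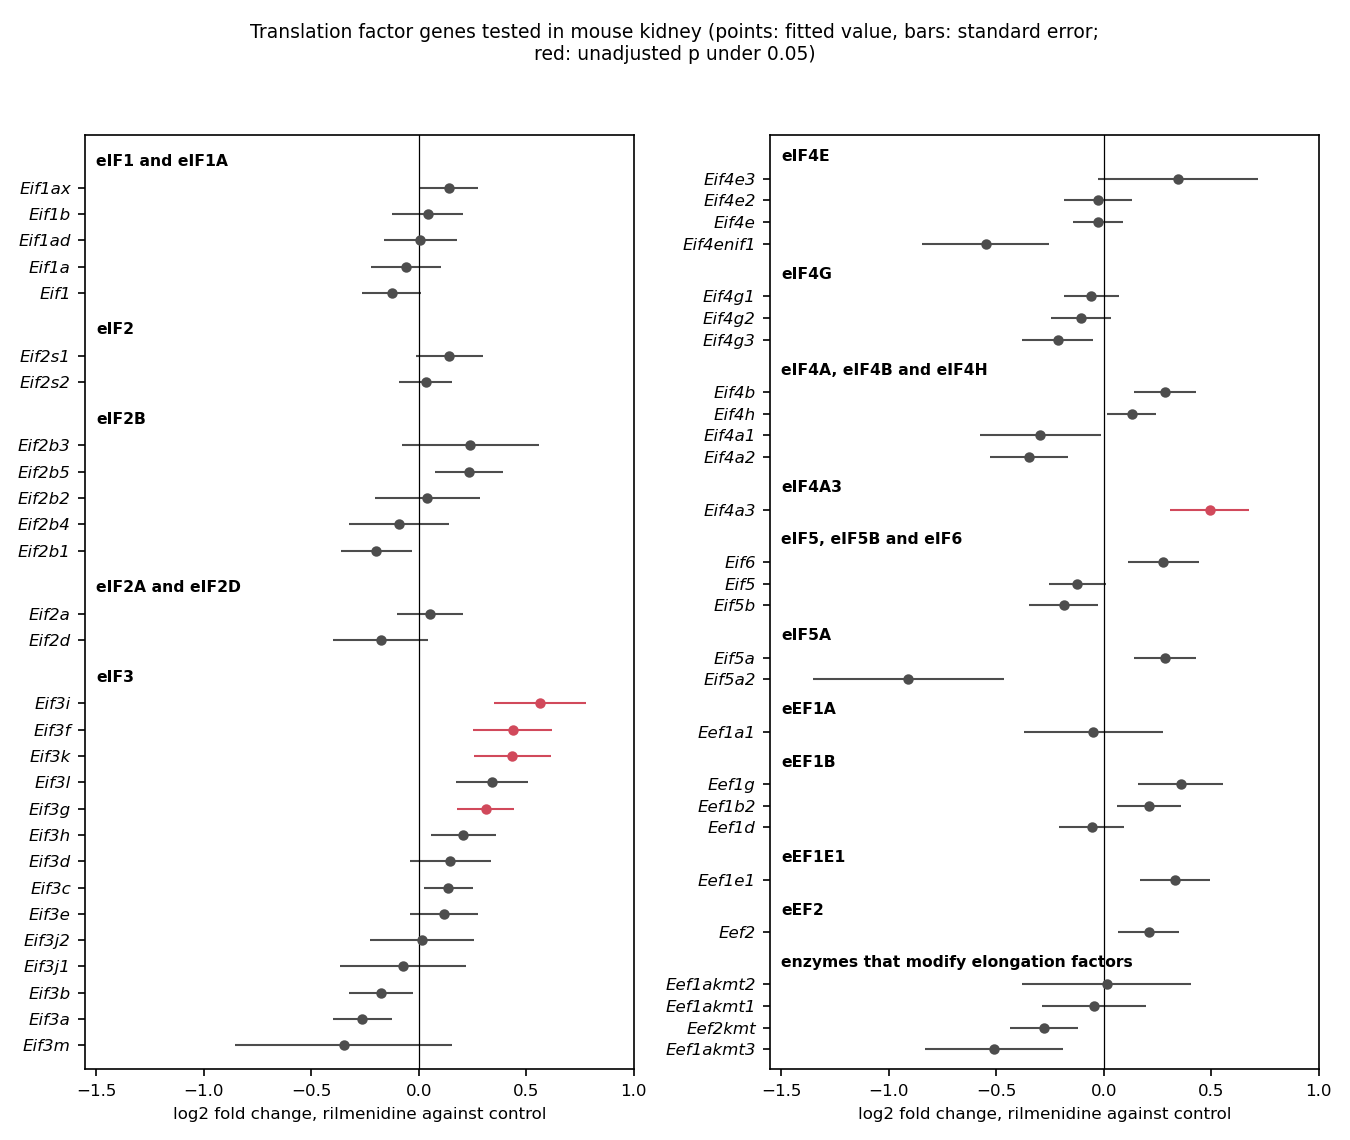
Log2 fold change of rilmenidine against control for the 55 tested factor genes (points, with bars for the standard error), grouped by complex, with unadjusted p-values under 0.05 in red. The 5 red genes are Eif3i, Eif3k, Eif3f, Eif3g and Eif4a3, and the values of the eIF4G genes lie below 0.

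The kidneys also differed in depth and in Malat1, an abundant nuclear long noncoding RNA. Library totals were 863605, 1787638, 1187020, 1334020, 1644042 and 2559118 counts in control kidneys 1 to 6 and 1813465, 1924490, 3042036 and 3232063 counts in rilmenidine kidneys 1 to 4 (two-sided exact permutation test, p = 0.0571, smallest possible 0.00476). Malat1 stood at 1482, 398, 1182, 1466, 2100 and 284 normalized CPM, which scales counts to a common library total by the RLE method, in the controls. In the treated kidneys it stood at 339, 351, 306 and 393 normalized CPM (exact permutation p = 0.0762). Controls 2 and 6 thus shared the Malat1 range of the treated kidneys or lay next to it, and these same controls recur below. Control 2 also had 8091 normalized CPM summed over the blood genes Hbb-bs, Hba-a1 and Hbb-bt. The other controls had 900 to 2922 and the treated kidneys 2628 to 3737. In control 2 the immune genes Ptprc, Cd74, Lyz2 and C1qa summed to 181. The other controls had 39.0 to 81.5 and the treated kidneys 96.5 to 113. The part of blood or immune cells in the values of control 2 was not tested. RNA for all values came from whole tissue, in which fewer cells of a type and less RNA per cell cannot be told apart.

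Because the extraction text of the labels speaks of liver, the tissue was checked by marker genes. The proximal tubule genes Kap, Slc34a1, Lrp2, Slc5a2 and Cubn summed to 38810 to 52840 normalized CPM in controls and 43040 to 65960 in treated kidneys. Kap was the most abundant of them, at a median of 38770 in controls and 45450 in treated kidneys. The 5 liver genes (Alb, Apoa1, Apob, Fgb and Serpina3k) summed to 2.25 to 26.4 normalized CPM in controls and 7.54 to 20.1 in treated kidneys. The libraries were therefore kidney by their markers.

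eIF3 is the largest initiation factor, a scaffold whose core octamer (subunits a, c, e, f, h, k, l and m) sits on the small ribosomal subunit while a peripheral module of b, g and i lies near the mRNA channel. Of its 14 tested genes, 4 (28.6%) were higher in treated kidneys at an unadjusted p-value under 0.05, beside the 4.43% of all genes, and 0 were lower. Fold changes of 10 genes lay above 0 and of 4 below, with a median log2 fold change of 0.14.

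Eif3i (chr4:129591960-129600648, GRCm38), a WD-repeat subunit of the b-g-i module, had the highest log2 fold change of any factor. Its level in controls was 57.3 at the lowest, 77.6 at the median and 122 at the highest in normalized CPM, and the treated kidneys had 165, 93.4, 122 and 118. All 4 treated kidneys lay above the control median, and controls 2 and 6 (122 and 108) reached into their range. The level was 83.7 ± 27.7 (SD, n = 6) against 124.5 ± 29.6 (SD, n = 4), a log2 fold change of 0.56 (SE 0.22; edgeR adjusted p = 0.360).

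Eif3k (chr7:28971372-28981864), a small subunit of the octamer, stood at 85.4, 120.3 and 179 normalized CPM (lowest, median, highest) in controls and at 150, 178, 198 and 139 in treated kidneys. Only control 6 reached the treated range. The means were 122 ± 33.1 and 166 ± 27.1 (SD), and the log2 fold change was 0.44 (SE 0.18; edgeR adjusted p = 0.399). Its binding partner in the octamer is Eif3l. That gene had 52.6, 60.3 and 97.1 normalized CPM in controls against 83.5, 90.1, 78.7 and 81.5, all above the control median, with control 2 above every treated kidney (log2 fold change 0.34, SE 0.17; edgeR adjusted p = 0.495).

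Eif3f (chr7:108934417-108942951), an MPN-domain subunit that carries the longest pyrimidine run printed above, ran from 39.0 over a median of 48.9 to 74.9 normalized CPM in controls. The treated kidneys had 82.9, 61.4, 67.9 and 71.2. Control 2 lay inside the treated range and control 6, at 60.8, just below it. Means of 52.0 ± 14.5 and 70.8 ± 9.03 (SD) gave a log2 fold change of 0.44 (SE 0.18; edgeR adjusted p = 0.415).

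Eif3g (chr9:20894349-20898623), the RNA-recognition subunit of the b-g-i module, varied least of these genes. Controls had 63.1, 68.4 and 85.8 normalized CPM at the lowest, median and highest, and treated kidneys had 88.7, 96.7, 84.3 and 92.4. Control 6 overlapped the treated kidneys and control 2, at 83.9, came within 1 unit of them. The means were 72.6 ± 9.82 and 90.5 ± 5.27 (SD), a log2 fold change of 0.31 (SE 0.13; edgeR adjusted p = 0.417).

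**Figure D2:**
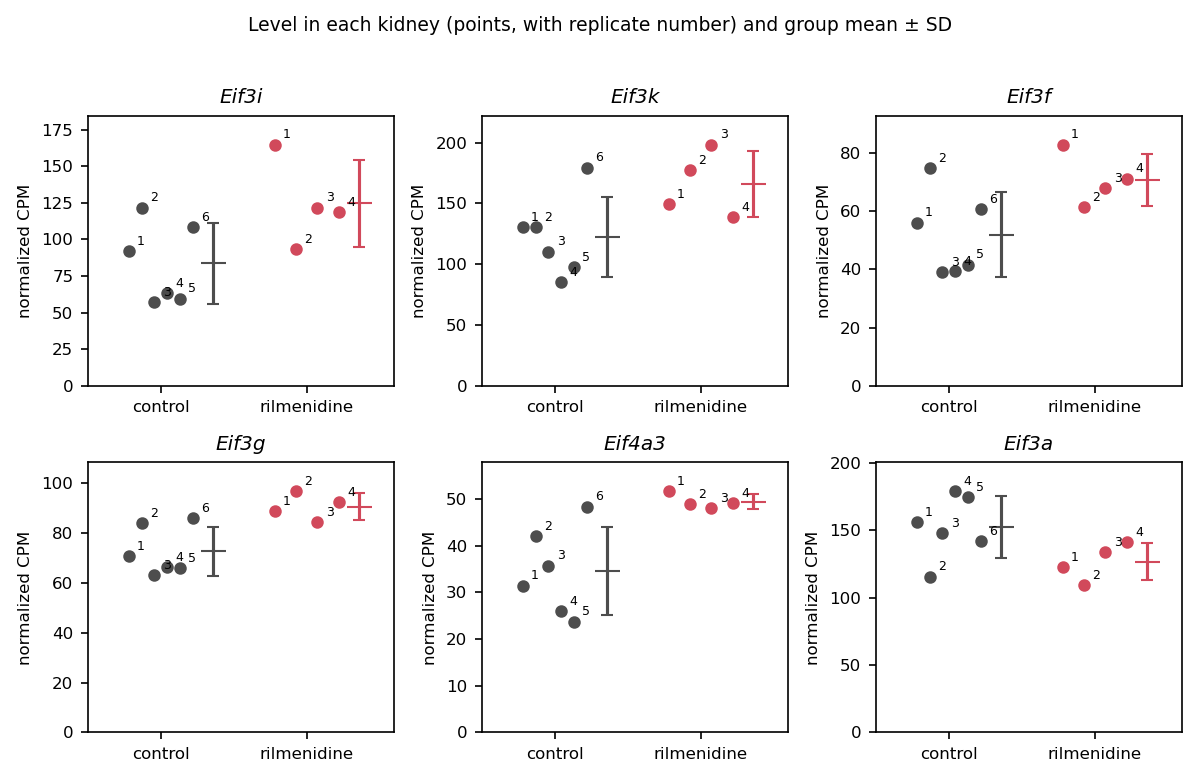
Normalized CPM in each kidney (points, with replicate numbers) for Eif3i, Eif3k, Eif3f, Eif3g, Eif4a3 and Eif3a, with the group mean and SD beside them (control n = 6, rilmenidine n = 4). In the first 5 genes the treated kidneys all lie above the control median and controls 2 and 6 lie highest among controls, and in Eif3a the treated kidneys all lie below the control median of 152.

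The other eIF3 genes did not pass at an unadjusted p-value of 0.05. Eif3a, the large subunit that nucleates the complex, lay on the other side of 0, with 116, 152 and 179 normalized CPM in controls (lowest, median, highest) and 123, 109, 134 and 141 in treated kidneys. All 4 treated kidneys lay below the control median, and the log2 fold change was -0.26 (SE 0.14; edgeR adjusted p = 0.524). With Malat1 as a covariate it was -0.0447 (SE 0.15), and without control 2 it was -0.33, which passed an unadjusted p-value of 0.05. Eif3b, the scaffold of the peripheral module, had a log2 fold change of -0.18 (SE 0.15). Eif3h (0.21), Eif3d (0.15), Eif3c (0.14) and Eif3e (0.12) lay above 0, with standard errors from 0.11 to 0.19. Members of the same complex thus had fold changes on both sides of 0, and within the b-g-i module Eif3i and Eif3g differed in sign from Eif3b.

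Eif3m, the octamer subunit with a PCI domain, was listed with only 1 to 14 counts per library (log2 fold change -0.35, SE 0.50), although partners such as Eif3k had 115 to 567. Of the last 500 bases of its transcript, 50.3% of 50-base words occur in another gene, and the part of such sharing in the low count was not tested. Eif3e (30.4% of words shared) had 111 to 380 counts, and Eif2s3x, which shares none, had 1 to 10. Sequence is also shared by the Eif3j genes, copies of the loosely attached j subunit. Eif3j2 (88.9% of words shared) had a log2 fold change of 0.01 and Eif3j1 (19.3% shared) one of -0.07.

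As a mean over its 14 tested genes, eIF3 stood at 5.53, 5.77, 5.49, 5.45, 5.49 and 5.72 log2 CPM in controls 1 to 6. In rilmenidine kidneys 1 to 4 it stood at 5.85, 5.67, 5.72 and 5.66. The 2 controls with low Malat1 lay among the treated kidneys, and the other 4 controls lay below all of them. For the 8 octamer genes the means were 6.04 ± 0.13 in controls and 6.20 ± 0.10 in treated kidneys, and for the b-g-i module 6.07 ± 0.27 and 6.32 ± 0.08 (log2 CPM, SD). No p-value is given for such means, since the factors were taken up, by their symbols, with earlier results of these data known.

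With log2 Malat1 as a covariate the log2 fold changes were 0.16 for Eif3i (SE 0.22), 0.08 for Eif3k (SE 0.17), 0.12 for Eif3f (SE 0.19) and 0.12 for Eif3g (SE 0.14), each smaller than its standard error. With log2 library size as a covariate they were 0.44 (SE 0.26), 0.26 (SE 0.21), 0.33 (SE 0.23) and 0.21 (SE 0.16), and none passed an unadjusted p-value of 0.05. Treatment, Malat1 and depth cannot be told apart for these genes in 10 kidneys. Control 6 and rilmenidine kidneys 3 and 4 also had fewer counts on olfactory and vomeronasal receptor genes (8.99, 4.27 and 7.43 CPM) than the other libraries (51.7 to 436), which the labels do not explain. In the other 5 control and 2 treated kidneys the log2 fold changes were 0.71 (Eif3i), 0.56 (Eif3k), 0.52 (Eif3f) and 0.40 (Eif3g), and the set of 3 libraries holds too few samples for its own value. Eif3f did not pass an unadjusted p-value of 0.05 there, while Eif3a (-0.41) and Eef2kmt (-0.53) passed it as lower. Without control 2 the log2 fold change of Eif3i was 0.70 (edgeR adjusted p = 0.144), and without control 6 that of Eif3k was 0.59 (adjusted p = 0.112). Conversely, Eif3f and Eif3g no longer passed an unadjusted p-value of 0.05 without control 3, 4 or 5 or, for Eif3f, rilmenidine kidney 1 or 4 and, for Eif3g, rilmenidine kidney 2 or 4, Eif3i without rilmenidine kidney 1, and Eif3k without control 4 or 5 or rilmenidine kidney 2 or 3.

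**Figure D3:**
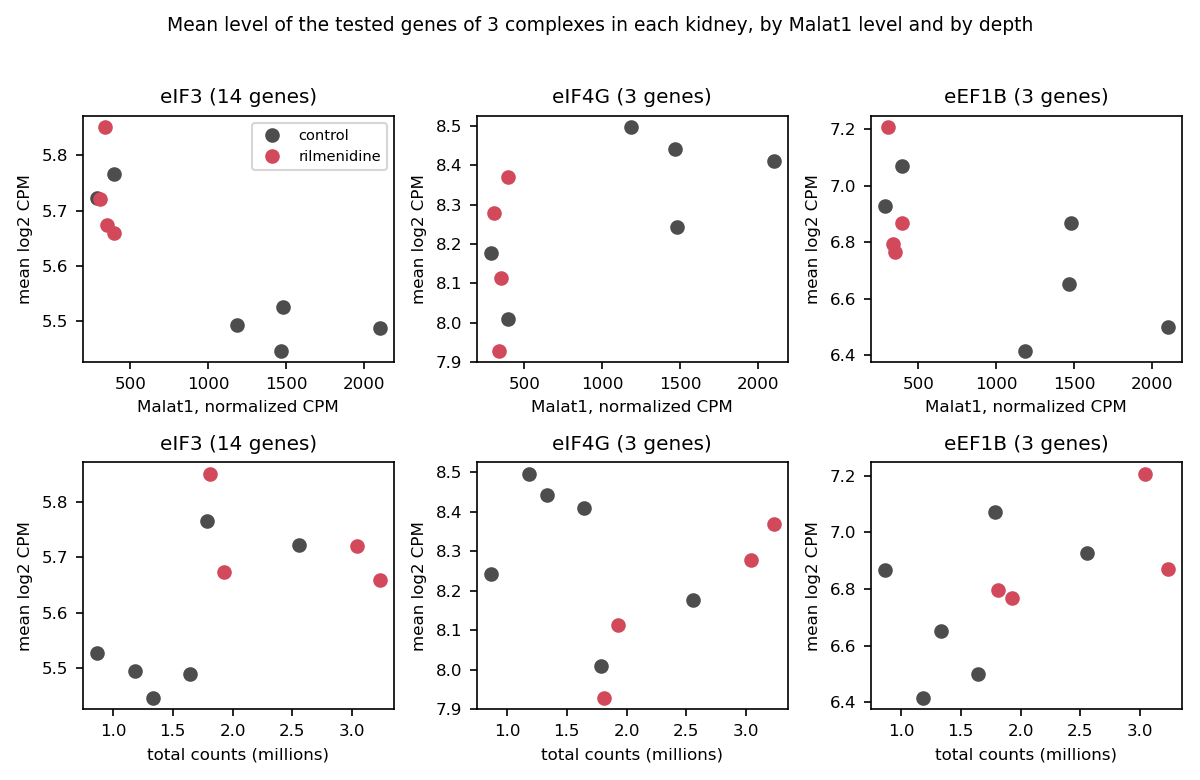
Mean log2 CPM of the tested genes of eIF3, eIF4G and eEF1B in each kidney, plotted against the normalized CPM of Malat1 (top) and against total counts (bottom), control kidneys dark and rilmenidine kidneys red. The 4 controls with Malat1 from 1182 to 2100 have the lowest eIF3 means, 5.45 to 5.53, and the other controls lie with the treated kidneys.

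Eif4a3 (chr11:119288363-119300089) encodes the DEAD-box helicase that marks exon junctions on spliced mRNA and shares its name, more than its role, with the initiation helicases. It had the smallest p-value of any factor. Controls had 31.4, 42.0, 35.7, 26.0, 23.7 and 48.4 normalized CPM, and treated kidneys 51.6, 48.9, 47.9 and 49.0. The treated kidneys were tightly grouped (49.4 ± 1.58, SD) and the controls spread (34.5 ± 9.45), and control 6 alone fell among the treated values. The log2 fold change was 0.49 (SE 0.18; edgeR adjusted p = 0.343). It became 0.12 (SE 0.16) with Malat1 as a covariate and 0.33 (SE 0.22) with library size, and it kept an unadjusted p-value under 0.05 whichever kidney was left out, at 0.40 to 0.63. In its last 500 bases 29.3% of 50-base words occur in 3 other genes, 1 of them a pseudogene.

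The cap-binding complex eIF4F joins the cap-binding protein eIF4E, the scaffold eIF4G and the helicase eIF4A. Eif4e, its cap-binding subunit and the target of the 4E-BP repressors, was nearly level, at 122, 123 and 148 normalized CPM in controls (lowest, median, highest) and at 113, 126, 139 and 130 in treated kidneys. The log2 fold change was -0.03 (SE 0.12; edgeR adjusted p = 0.967), so its 95% range, about 2 standard errors to each side, spanned changes of both signs. The homologs Eif4e2 and Eif4e3 had -0.02 (SE 0.16) and 0.34 (SE 0.37, from 3 to 17 counts; 0.0236 without rilmenidine kidney 2). Eif4enif1, the transporter that carries eIF4E into the nucleus and to P-bodies, had 5.78, 8.64 and 11.2 normalized CPM in controls and 6.38, 7.602, 4.55 and 5.00 in treated kidneys. All 4 lay below the control median (log2 fold change -0.55, SE 0.30; edgeR adjusted p = 0.534) at only 10 to 20 counts per library, and with library size as a covariate the value was -0.27 (SE 0.35).

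The eIF4G scaffolds were the only complex of more than 2 tested genes with every fold change below 0, although 0 of 3 passed. Eif4g2, a cap-independent relative of the scaffold, had 915, 1183 and 1344 normalized CPM in controls and 916, 1065, 1239 and 1160 in treated kidneys (log2 fold change -0.11, SE 0.14; edgeR adjusted p = 0.849). Eif4g3 had -0.21 (SE 0.16) and the major form Eif4g1 -0.06 (SE 0.13). Without rilmenidine kidney 1 Eif4g2 was at -0.0291 and Eif4g1 at 0.0255, and without control 5 Eif4g3 was at -0.13. With Malat1 as a covariate the 3 values were 0.04, 0.07 and 0.04, so the sign of each turned with Malat1 in the model. That of Eif4g1 turned without rilmenidine kidney 1 as well.

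Among the helicase and its helpers, Eif4a2 and Eif4b lay on opposite sides of 0 without passing the test. Eif4a2 had 43.7, 55.6 and 91.4 normalized CPM in controls (lowest, median, highest) and 48.7, 44.0, 48.3 and 44.3 in treated kidneys, all below the control median (log2 fold change -0.35, SE 0.18; edgeR adjusted p = 0.524). Without control 4, its highest kidney, the value was -0.18, and with Malat1 as a covariate -0.0449. Eif4b, which stimulates the helicase and is a substrate of S6 kinase, had 63.9, 67.4 and 94.3 in controls and 107, 77.1, 83.6 and 82.1 in treated kidneys. All 4 lay above the control median and control 1 lay among them (0.28, SE 0.14; edgeR adjusted p = 0.505), with 0.18 when rilmenidine kidney 1 was left out. Eif4b was 1 of 2 factors with an unadjusted p-value under 0.05 when library size was a covariate (0.45, SE 0.17). The other was Eif1, the guardian of start codon choice, at -0.13 (SE 0.14) without a covariate, -0.34 (SE 0.15) with library size and -0.33 (SE 0.14) with Malat1, where it was the only factor to pass. Adjusted p-values of the factors were at least 0.975 in these fits, in which 4.30% and 3.03% of all genes had an unadjusted p-value under 0.05. Eif4a1, the other initiation helicase, had -0.29 (SE 0.28; -0.086 without control 5) and its cofactor Eif4h 0.13 (SE 0.12).

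The remaining initiation factors gave 0 calls. Of the eIF2 heterotrimer, which brings the initiator tRNA, Eif2s1 had a log2 fold change of 0.14 (SE 0.16) and Eif2s2 0.03 (SE 0.12). The gamma subunit Eif2s3x had 1 to 10 counts and was not tested. Its guanine exchange factor eIF2B, the site at which stress signalling slows initiation, had a median of 0.04 over 5 subunits, from -0.20 (Eif2b1, SE 0.17) to 0.24 (Eif2b3, SE 0.32), with Eif2b5, the catalytic subunit, at 0.23 (SE 0.16; edgeR adjusted p = 0.633). The start site factors of the eIF1 and eIF1A group ranged from -0.13 to 0.14. Eif5, the activator of eIF2 GTP hydrolysis, had -0.12 (SE 0.13) and the joining factor Eif5b -0.19 (SE 0.16). The anti-association factor Eif6 had 0.28 (SE 0.17; edgeR adjusted p = 0.585), and Eif2a and Eif2d, alternative carriers of initiator tRNA, had 0.05 and -0.18. With Malat1 as a covariate the sign turned for Eif2s1 (-0.0838), Eif5b (0.10), Eif6 (-0.0282), Eif1ax (-0.0073) and Eif1b (-0.13).

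eIF5A carries hypusine and relieves ribosomes stalled on proline-rich stretches. Eif5a had 285, 382 and 486 normalized CPM in controls (lowest, median, highest) and 446, 451, 496 and 484 in treated kidneys. All 4 lay above the control median and controls 2 and 6 (450.0 and 486) lay among them (log2 fold change 0.29, SE 0.14; edgeR adjusted p = 0.501), and with Malat1 as a covariate the value was 0.01 (SE 0.14). Its paralog Eif5a2 had the lowest fold change of any factor, -0.91 (SE 0.44; edgeR adjusted p = 0.487). It rested on 5 to 13 counts per library, at 3.12, 7.03 and 11.2 normalized CPM in controls and 2.90, 7.06, 2.80 and 1.87 in treated kidneys, of which rilmenidine kidney 2 lay at the control median. The value was -1.38 without that kidney and -0.0562 (SE 0.44) with library size as a covariate.

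Of the elongation factors, counted as the eEF1A, eEF1B and eEF2 genes with Eif5a and Eif5a2 and without Eef1e1 or the modifying enzymes, 0 of 7 tested passed, with 4 above 0 and a median log2 fold change of 0.21. Eef2 (chr10:81176631-81182498), the translocase, had the highest listed level of any factor per kilobase of exonic length, at 454 normalized CPM per kb. The listed count of Eef1a1 is uncertain, as described below, so its place beside Eef2 is not known. Eef2 had 1221, 1318 and 1715 normalized CPM in controls and 1660, 1451, 1708 and 1748 in treated kidneys, all 4 above the control median, with controls 2 and 6 (1715 and 1701) among them. The means were 1420 ± 229 and 1642 ± 132 (SD), a log2 fold change of 0.21 (SE 0.14; edgeR adjusted p = 0.636), which became -0.03 with Malat1 as a covariate. Eef2k, the kinase that inactivates eEF2, had 1 to 10 counts and was not tested, and the eEF2 methyltransferase gene Eef2kmt had -0.28 (SE 0.16; edgeR adjusted p = 0.563).

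The eEF1B exchange factor recharges eEF1A with GTP. Its gamma subunit Eef1g had 72.2, 89.3 and 117 normalized CPM in controls (lowest, median, highest) and 98.6, 94.5, 185 and 103 in treated kidneys. The log2 fold change of 0.36 (SE 0.20; edgeR adjusted p = 0.538) rested on rilmenidine kidney 3, and without that kidney it was 0.07. Eef1b2 had 0.21 (SE 0.15) and Eef1d -0.06 (SE 0.15). Eef1e1, an auxiliary protein of the aminoacyl-tRNA synthetase complex, had 23.6, 29.3 and 32.8 normalized CPM in controls and 33.1, 32.0, 46.2 and 34.7 in treated kidneys, and only control 6 reached them (0.33, SE 0.16; edgeR adjusted p = 0.487). Without rilmenidine kidney 3, the highest, the value was 0.19. The methyltransferases of eEF1A were counted 3 to 63 times per library, with log2 fold changes of -0.04 (Eef1akmt1), 0.01 (Eef1akmt2) and -0.51 (Eef1akmt3, SE 0.32).

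**Figure D4:**
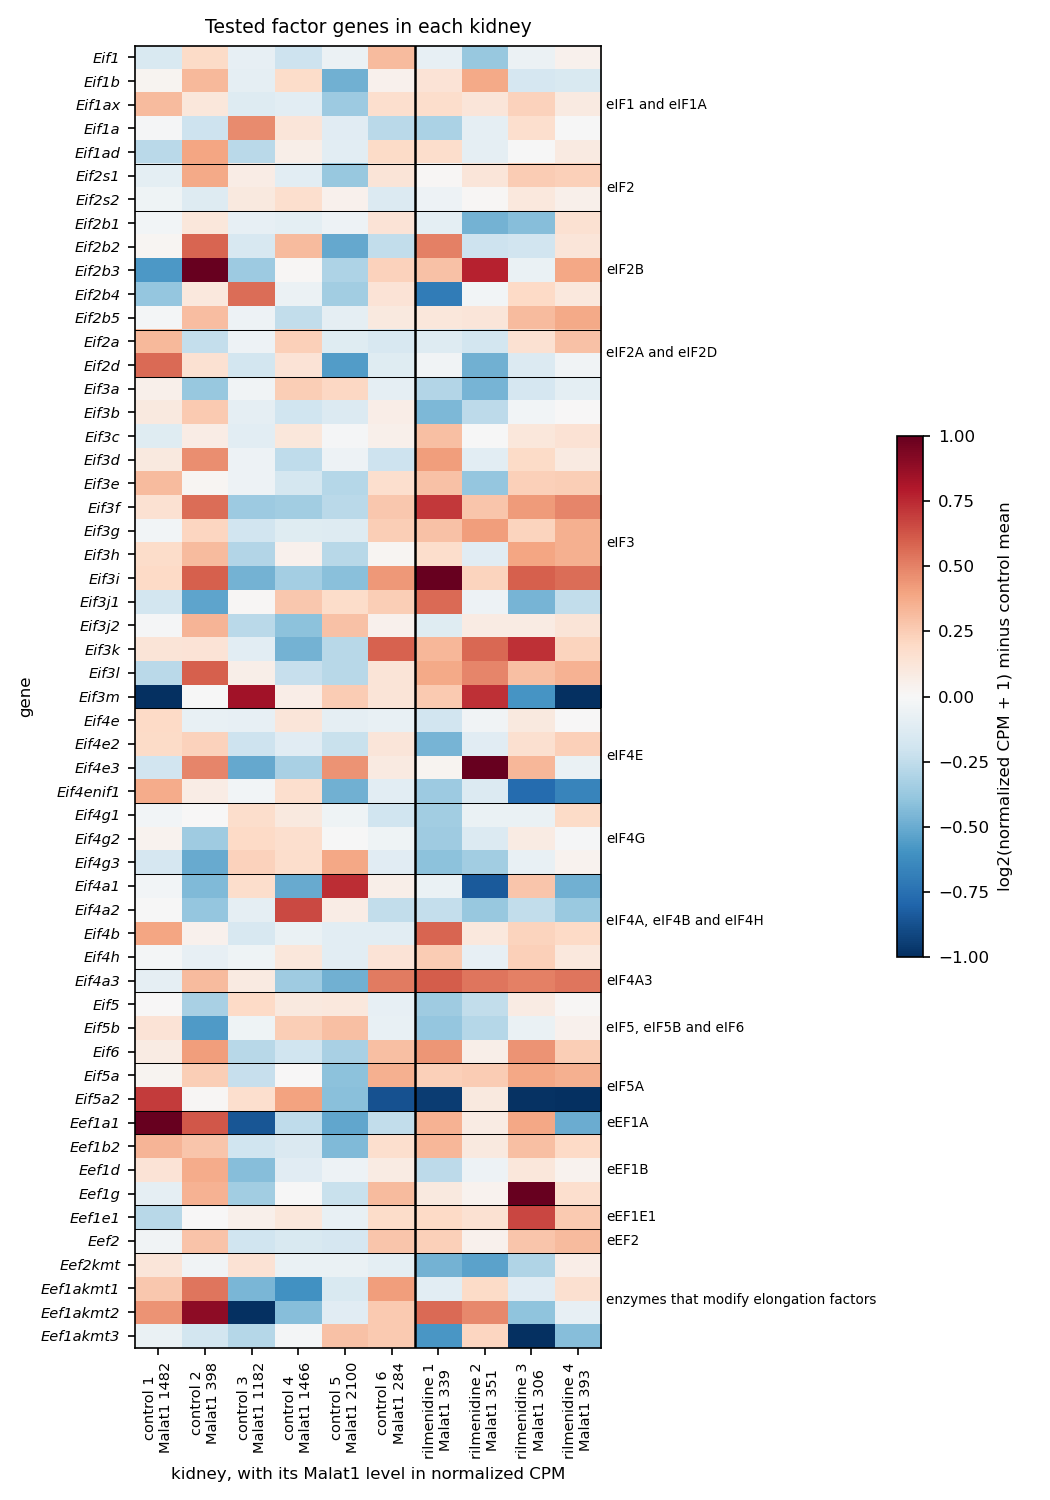
The 55 tested factors in each kidney as log2(normalized CPM + 1) minus the control mean (red higher, blue lower, colours end at 1 and -1), ordered by complex, with Malat1 in normalized CPM under each kidney. In Eif3i, Eif3f and Eif3k the treated columns are red and controls 1, 2 and 6 lie above the control mean with them, and rilmenidine kidney 3 stands out in Eef1g.

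Eef1a1, the general carrier of aminoacyl-tRNA and elsewhere among the most abundant mRNAs of a cell, was listed with 45 to 257 counts per library. Its level was 165, 106, 37.3, 57.2, 47.4 and 57.7 normalized CPM in controls and 87.6, 72.8, 89.9 and 48.4 in treated kidneys. The controls alone spanned more than the 4 treated kidneys did (control coefficient of variation 61.9%), and the log2 fold change was -0.05 (SE 0.33; edgeR adjusted p = 0.978). In its last 500 bases 40.4% of 50-base words occur in 17 other genes, 14 of them pseudogenes, so the listed count need not be the level of the mRNA. Eef1a2, the form of muscle and neurons, had 0 counts in all 10 libraries, which allows up to 0.155 CPM over the 19387497 counts pooled and 0.928 to 3.47 CPM in a single library. Its last 500 bases share no word with another gene. Of the markers of the cells that express it, the muscle genes Acta1 and Ckm had 0 counts in every library, and the neuronal genes Snap25 and Syt1 had 0 to 20 and 0 to 8 counts, most in rilmenidine kidney 2. Eif4e1b had 1 count in all. A listed 0 need not be absence, since Rps6kb2 and Dph1, which most cells express, had 0 and 0 to 1 counts where another gene overlaps their transcript ends.

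Paralogs stood at different levels per kilobase, with the caveat that counts of 3′ ends need not grow with length. Eif5a had 120 to 208 normalized CPM per kb over the 10 kidneys and Eif5a2 0.37 to 2.23, so their ranges did not touch. The same held for Eif4a2 (8.20 to 17.1) over Eif4a1 (2.26 to 7.21), and for Eif4g2 (90.01 to 132) over Eif4g3 (9.37 to 17.5). Thus Eif4a2 lay above Eif4a1 in every kidney, and Eif5a above Eif5a2. Together the 59 factors took 0.633% to 0.738% of the counts of a library, and Eef2 alone made up 18.8% to 24.5% of their summed CPM.

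**Figure D5:**
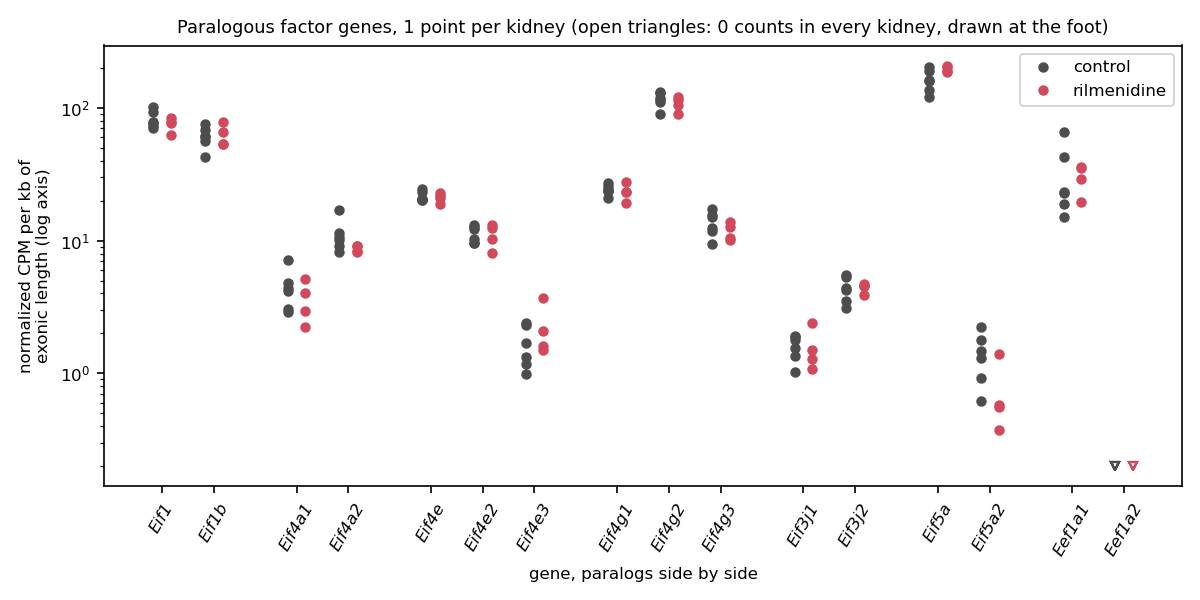
Normalized CPM per kb of exonic length (log axis) for paralogous factors, with 1 point per kidney, control dark and rilmenidine red. Eif5a and Eif5a2, Eif4a2 and Eif4a1, and Eif4g2 and Eif4g3 have ranges over the 10 kidneys that do not overlap, and Eef1a2 is drawn at the foot because it had 0 counts.

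TOP mRNAs among the factors (Eef1a1, Eef1b2, Eef1d, Eef1g, Eef2, Eif3e, Eif3f, Eif3h and Eif4b) had 1 of 9 higher (Eif3f) and 7 of 9 above 0, with a median log2 fold change of 0.21. Their share of 11.1% higher and 77.8% above 0 stood beside 4.43% and 50.3% of all genes. With Malat1 as a covariate Eef1a1 (-0.12), Eef1d (-0.21) and Eef2 (-0.03) lay below 0, and Eef1g (0.05), Eif3f (0.12) and Eif4b (0.32) lay above. Values with this covariate are not given for Eef1b2, Eif3e and Eif3h, so these signs do not cover the whole list. The 5 tested TOP mRNAs outside the factors and the ribosomal proteins had 0 calls and a median of 0.16. The summed level of the TOP mRNAs among the factors was 1803, 2108 and 2600 normalized CPM in controls (lowest, median, highest) and 2166 to 2656 in treated kidneys, so the groups overlapped. Controls 2 and 6, with low Malat1, lay within the treated range (2600 and 2471). Most of this sum was Eef2, at 1221 to 1715 in controls and 1451 to 1748 in treated kidneys.

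Beyond the factors, 90 other genes of translation were set beside them and 71 were tested. At an unadjusted p-value under 0.05, 1 was higher and 4 were lower (1.41% and 5.63%), beside 4.43% and 6.13% of all genes. Paip2, a repressor that takes poly(A)-binding protein away from eIF4G, was the higher gene. It had 140, 164 and 179 normalized CPM in controls and 190, 187, 202 and 193 in treated kidneys, without overlap (log2 fold change 0.27, SE 0.11; edgeR adjusted p = 0.407). Paip2 passed an unadjusted p-value of 0.05 with Malat1 as a covariate (0.30, SE 0.14) but not with library size (0.31, SE 0.15). It did not pass with the replicate block (0.25, SE 0.14) or in the libraries with at least 10 CPM on receptor genes (0.24, SE 0.16). Nor did it pass without control 2 or 5 or rilmenidine kidney 3. Atf4, the transcription factor translated when eIF2 is phosphorylated, had 53.9, 65.6 and 95.4 in controls and 52.8, 46.2, 53.9 and 51.8 in treated kidneys. The highest treated kidney lay just below the lowest control (-0.46, SE 0.17; edgeR adjusted p = 0.339; -0.29 with Malat1 as a covariate), and of the other 3 tested ATF4 genes 0 passed.

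Rps6kb1, the S6 kinase that acts on Eif4b, had 41.4, 52.6 and 81.0 normalized CPM in controls and 48.7, 35.8, 41.3 and 34.7 in treated kidneys (log2 fold change -0.48, SE 0.20; edgeR adjusted p = 0.411), and with Malat1 as a covariate the value was -0.0935 (SE 0.21). With library size as a covariate it was -0.36 (SE 0.26). Rps6kb1 passed an unadjusted p-value of 0.05 without control 1, 2 or 6 or rilmenidine kidney 1 or 3. It did not pass without control 3, 4 or 5 or rilmenidine kidney 2, or with either covariate. Impact, an inhibitor of the GCN2 pathway, had 22.2, 63.0 and 68.1 in controls and 26.7, 42.4, 28.3 and 26.9 in treated kidneys. Controls 2 and 6 (22.2 and 25.0) lay below every treated kidney (-0.70, SE 0.30; edgeR adjusted p = 0.426), and with Malat1 as a covariate the value was 0.23. Pelo, which rescues stalled ribosomes, had 46.0, 55.0 and 67.1 in controls and 44.1, 15.8, 43.7 and 43.1 in treated kidneys, without overlap (-0.59, SE 0.22; edgeR adjusted p = 0.347). Without rilmenidine kidney 2, the lowest, the value was -0.36. The last 500 bases of its transcript are overlapped over 99.8% by Gm49395 on the same strand, so its counts are uncertain.

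The regulators left out by the symbol rule gave 0 calls in the model without covariates. The eIF2 kinases had log2 fold changes of -0.02 (Eif2ak1, SE 0.17), 0.36 (Eif2ak2, SE 0.32), -0.15 (Eif2ak3, SE 0.23) and -0.25 (Eif2ak4, SE 0.50). With 1 kidney left out, Eif2ak2 fell to 0.0444 (rilmenidine kidney 3), and the others reached 0.0802 (Eif2ak1, rilmenidine kidney 1), 0.0061 (Eif2ak3, control 4) and 0.33 (Eif2ak4, control 3). With library size as a covariate Eif2ak1 was at -0.41 (SE 0.17; edgeR adjusted p = 0.975) and passed an unadjusted p-value of 0.05. With Malat1 as a covariate Eif2ak1 was at -0.30 (SE 0.19) and Eif2ak2 at 0.81 (SE 0.41), and neither passed. In the libraries with at least 10 CPM on receptor genes Eif2ak2 was at -0.20. Both tested eIF4E-binding proteins had 0.12 (Eif4ebp1, SE 0.27; Eif4ebp2, SE 0.24), and Eif4ebp3 had 0 counts, where its transcript end is overlapped over 100% by another gene. Eif4ebp1 was at 0.0069 without rilmenidine kidney 4 and Eif4ebp2 at -0.0517 without rilmenidine kidney 1. The 20 tested cytosolic aminoacyl-tRNA synthetases had 0 calls and a median of 0.05, and 9 mitochondrial translation factors 0 calls and a median of 0.12.

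Some markers of tubule segments also passed an unadjusted p-value of 0.05, beside 10.6% of all genes. They were 1 of 2 thick ascending limb genes, 2 of 3 principal cell genes and 1 of 2 distal convoluted tubule genes tested. The tested genes of proximal tubule, intercalated cells, podocytes, endothelium, immune cells, blood and liver had 0 calls. Umod, the defining gene of the thick ascending limb, had a log2 fold change of 0.61 (edgeR adjusted p = 0.244). In its last 500 bases 55.4% of 50-base words occur in Gm44588, so its counts are uncertain. With Slc12a1 (0.08) the summed level of that segment was 1086 to 1736 normalized CPM in controls and 1349 to 2257 in treated kidneys. Aqp2 (0.58; edgeR adjusted p = 0.229) and Aqp3 (0.34; adjusted p = 0.442) of principal cells were higher. With Hsd11b2 (0.06) the sums were 153 to 246 and 217 to 255. Slc12a3 of the distal convoluted tubule was lower (-0.55; edgeR adjusted p = 0.313), with sums of 186 to 337 and 117 to 243. Their part in the values of the factors was not tested.

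The genes whose levels followed the factors most closely over the 10 kidneys were Dnpep, B2m, Itm2c, Smpdl3a and Fkbp1a, each with Pearson r of 0.94 against the mean log2 CPM of the 55 tested factors, a description over kidneys that share depth and Malat1 differences. Across genes, log2 exonic length and log2 fold change had r = -0.29 over the 55 factors and -0.28 over 10020 genes, as a description with no test.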

How the data were processed

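For 10 kidney libraries the authors deposited raw counts, 1 value for each Ensembl gene and library. Libraries followed a 3′-end protocol and reads of 100 bp were sequenced. The submitters' processing notes name bcl2fastq 1.8.4, Trimmomatic 0.32, STAR 2.5.2b, featureCounts 1.5 and the build mm10. The annotation release, strand setting and handling of molecular identifiers are not given in the sources used here, so counts of overlapping or near-identical genes are uncertain. If duplicate reads were kept, counts overstate molecules, and limits drawn from them cover counting error only.

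Identifiers were matched to GENCODE M21 on reference chromosomes (42462 of 43629 listed genes, 21474 of them protein-coding). Of 67 protein-coding symbols that matched, 8 were excluded by the rule. A gene was kept when 66.6% of samples or more had 6 or more reads for it (10055 genes). RLE normalization and the quasi-likelihood test of edgeR 4.0.16 (R 4.3.3) were applied to all kidneys together, without covariates, with Benjamini-Hochberg adjustment over all tested genes and a threshold of 0.05. Standard errors are the log2 fold change over the root of F. Levels are RLE-normalized CPM, and a prior count of 2 was used for log2 CPM. Transcript ends were compared over the last 500 bases in words of 50, with promoter sequences taken from RefSeq. Single values were compared by two-sided exact permutation tests over 210 divisions.

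The members were chosen by symbol, without use of their values, but the choice of this group of genes, of the complexes and of the lists was made with earlier results of these data known. Named genes are the factors with an unadjusted p-value under 0.05 or without overlap, in each complex the tested member of smallest p-value among those above 0 and among those below, paralog pairs, eIF2 subunits, Eef2 and Eef2k, untested factors, of the other translation genes those with an unadjusted p-value under 0.05, the kinases, eIF4E-binding proteins and Atf4, and the 5 genes of most like pattern. Further members are given by value to complete their complex.

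Samples were grouped by their titles, and the series design calls them biological replicates. No pair of libraries agreed within sampling noise (smallest chi-square per degree of freedom 3.669). On simulated data the quasi-likelihood test recovered 169 of 190 genes changed by 1.5 on the log2 scale among 9798 genes, with 5 false calls, the likelihood ratio test 174 with 13, and DESeq2 1.42.0 170 with 10. The factors had smaller log2 fold changes, from -0.91 to 0.56, and recovery at such sizes was not simulated. Each gene was drawn on its own, so differences that many genes share, such as those that go with Malat1, were not simulated either. The alternatives were TMM, 2 other filters, DESeq2, the likelihood ratio test, covariates for library size and Malat1, the replicate number as a block, a subset of libraries in which olfactory and vomeronasal receptor genes took 10 CPM or more, and leaving out each kidney.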

Additional observations from a re-analysis of the deposited data

Results flagged for a closer look

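In 98 groups of kidneys examined, 6 held a kidney that stood apart from the rest of its group by Dixon's criterion, which chance meets in about 1 in 20 groups. Rilmenidine kidney 3 had 185 normalized CPM of Eef1g, where the other treated kidneys had 94.5 to 103 (528 counts). Control 4 had 91.4 normalized CPM of Eif4a2 against 43.7 to 60.7 in the other controls, and control 1 had 94.3 of Eif4b against 63.9 to 73.7. Outside the factors, control 3 had 22.4 normalized CPM of the kinase gene Eif2ak4 against 2.34 to 8.17, from 27 counts. Rilmenidine kidney 2 stood apart in 2 regulators, with 42.4 of Impact against 26.7 to 28.3 in the other treated kidneys and 15.8 of Pelo against 43.1 to 44.1.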

How the results depend on the processing

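No factor had an adjusted p-value under 0.05 in any of the 19 alternatives, and the smallest among them was 0.0545, with genes of at least 1 count in any sample. None of the 5 factors had an unadjusted p-value under 0.05 with library size as a covariate, where 2 others did (Eif1 and Eif4b), or with Malat1, where 1 other did (Eif1). When 1 kidney was left out, 2 to 11 factors did, beside shares of all genes as follows. There were 11 factors and 13.5% of genes without control 2, 9 and 14.4% without control 6, 9 and 12.1% without rilmenidine kidney 2, 3 and 8.52% without control 3, 3 and 7.29% without control 5, 3 and 8.14% without rilmenidine kidney 1, and 2 and 8.05% without control 4. With 1 kidney left out, the median log2 fold change of the factors ran from -0.0336 to 0.0936. Over all genes, 0 calls at an adjusted p-value under 0.05 became 241 (64 higher, 177 lower, of 27565 genes) with at least 1 count in any sample, 60 by DESeq2, 44 by the likelihood ratio test, and 0 to 37 when 1 kidney was left out (33 without control 2, 37 without control 6, 6 without rilmenidine kidney 1). Of the named genes, Impact passed in 1 alternative (edgeR adjusted p = 0.0319 with at least 1 count in any sample).

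With the replicate number as a block, 3 genes passed, none of them a factor, and 6 factors had an unadjusted p-value under 0.05, Eif5a2 in addition to the 5. The numbers share only a name, because deviations of same-numbered kidneys correlated at 0.076, 0.077, -0.077 and -0.007. Under the block Eif1b (-0.063), Eif2a (-0.0291) and Eif3j1 (0.0246) changed sign.

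Of the 49 named genes that were tested and refitted, which leave out the untested factors and the 5 genes of like pattern, 25 kept their direction in every alternative that gave a value, among them the 5 above. Sign changes were with library size Eef1a1 (0.39), Eif3j1 (0.0435), Eif3j2 (-0.14), Eif4e (0.0131) and Eif2ak4 (0.64). With Malat1 they were Eef1akmt2 (-0.35), Eef2 (-0.0263), Eif1ax (-0.0073), Eif1b (-0.13), Eif2s1 (-0.0838), Eif3j2 (-0.0606), Eif4e (0.0322), Eif4g1 (0.0392), Eif4g2 (0.0375), Eif4g3 (0.0744), Eif5b (0.10), Eif6 (-0.0282), Eif2ak4 (0.43), Eif4ebp2 (-0.0293), Impact (0.23) and Eif2ak3 (0.0513). In the 5 control and 2 treated libraries with at least 10 CPM on receptor genes they were Eif2a (-0.19), Eif2s2 (-0.0484), Eif3j1 (0.33), Eif3j2 (-0.0597) and Eif2ak2 (-0.20). Leaving out 1 kidney took across 0 Eef1a1 (-0.18 to 0.27), Eef1akmt2 (-0.15 to 0.27), Eef1d (-0.13 to 0.0275), Eif1b (-0.0791 to 0.11), Eif2a (-0.0445 to 0.12), Eif3j1 (-0.33 to 0.0745), Eif3j2 (-0.0629 to 0.0936), Eif4e (-0.0723 to 0.0234), Eif4e2 (-0.12 to 0.0946), Eif4g1 (-0.15 to 0.0255), Eif2ak4 (-0.58 to 0.33), Eif4ebp2 (-0.0517 to 0.29), Eif2ak1 (-0.17 to 0.0802) and Eif2ak3 (-0.23 to 0.0061). The causes were not tested. Library sizes of 863605 to 3232063 counts limit genes of few counts, such as Eif5a2, Eif3m and Eif4e3.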
